A study of Mus musculus with 28 samples.

Results

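The response of retinal microglia to lipopolysaccharide (LPS, the endotoxin of Gram-negative bacteria) was compared between 18 h and 4 h after injection, with 5 retinas against 6, so that 11 of the 28 retinas of the series entered the comparison. Groups were taken from the sample labels and set against each other directly, without the naïve retinas as a reference. All mice were male Cx3cr1CreER:R26-tdTomato heterozygotes on C57BL/6, for which the labels gave no age. Endotoxin-induced uveitis (EIU) was induced by 1 LPS injection into the vitreous, and the labels call the 4 h group early and the 18 h group the peak of cellular infiltration. Live tdTomato-high cells were sorted from each retina and their polyadenylated RNA was amplified and sequenced. The other groups were 10 naïve retinas, which serve below as background, and 7 retinas taken 2 weeks after LPS.

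The model has limits that all groups share. The recombinase was driven by the Cx3cr1 promoter and switched on by tamoxifen given to the eye, and a heterozygote carries the CreER insertion in 1 of its 2 Cx3cr1 alleles. Each replicate was 1 retina. The labels give the left or right eye and experiment 1 or 2, but not which retinas came from the same mouse, so p-values measure the spread between retinas, part of which may not be between animals. The 4 h group held 3 retinas of each experiment. The 18 h group held 4 retinas of experiment 1 and 1 of experiment 2.

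LPS binds CD14 and the TLR4-MD-2 receptor and, through the adaptors MyD88 and TRIF, releases NF-kappa B, activates MAP kinases and induces interferon beta. The first wave of targets includes cytokines, chemokines and the feedback inhibitors that end the signal, among them I kappa B alpha, A20, tristetraprolin and the dual-specificity phosphatases. Secreted interferon and newly made factors then drive a second wave, and in macrophages some early genes are silenced while others stay inducible.

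Expression was given as RPKM, reads scaled to the length of the gene and the mapped reads of the library, with 10500000 to 19700000 alignments per retina at 4 h and 11600000 to 14400000 at 18 h. The microglial genes Cx3cr1, Csf1r, P2ry12, Tmem119, Aif1 and Itgam were above 0 in all 11 retinas. The fourth 18 h retina stood apart, with 6969 genes at an RPKM of at least 1 where the other 4 had 9499 to 10220, and it lay alone on the first principal component of the 11 retinas (148.9, against −67.0 to 43.4). Summed lymphocyte markers were higher at 18 h (136 ± 133 RPKM, SD, n = 5) than at 4 h (12.5 ± 4.47, n = 6; exact permutation test, two-sided, p = 0.00433, adjusted over 12 library values 0.0260), and the fourth 18 h retina held 367. Without it the 18 h mean was 78.1 RPKM. With any 1 of the 18 h retinas left out the p was 0.00952, the smallest that 210 splits allow (adjusted 0.0571). The lymphocyte sum was 20.2 to 81.3 RPKM in naïve retinas and 6.62 to 18.3 RPKM at 4 h. The B cell receptor gene Cd79b alone held 6.60 to 18.3 RPKM at 4 h, 27.5 to 53.6 RPKM at 18 h and 20.2 to 81.3 RPKM in naïve retinas. Of the defining lymphocyte markers, the cytotoxic granule gene Gzma and the T cell co-receptor gene Cd8a were at 0 in all 4 h retinas. They reached 237.9 and 9.95 RPKM at 18 h, and were at 0 in 8 and 7 of the 11 retinas. The Gzma maximum was in the fourth 18 h retina, since the lymphocyte sum of each other 18 h retina was at most 115 RPKM. The T cell receptor chains Cd3d, Cd3g and Cd3e reached at most 1.42, 0.767 and 0.297 RPKM. Summed monocyte markers (15.6 against 3.46 RPKM) and neutrophil markers (14.5 in both groups) did not pass the test (adjusted p = 0.346 and 0.996), nor did rod photoreceptor markers (2787 against 4924 RPKM, adjusted p = 0.325). At 4 h the neutrophil sum (0.321 to 37.8 RPKM) was mostly Csf3r (0.168 to 36.8 RPKM), which naïve retinas also held at 5.60 to 83.0 RPKM. At 18 h the sum reached 29.1 RPKM, whereas Csf3r was at most 11.7 RPKM. The granulocyte genes S100a8, S100a9, Camp and Mmp8 were at most 0.125, 0, 0.118 and 0 RPKM at 4 h and reached 9.24, 5.15, 3.28 and 2.30 RPKM at 18 h. The part of these transcripts in the results below was not tested, and in sorted bulk samples fewer cells of a type and less RNA per cell cannot be told apart.

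At 18 h, cytokine, chemokine and NF-kappa B feedback transcripts such as Il12b, Tnf, Ccl4 and Tnfaip3 were lower than at 4 h. The acute-phase gene Saa3, the chemokine Cxcl13, the formyl peptide receptor Fpr1, the inhibitory receptor Pilra and the antiviral tether Bst2 were higher. Of the 13164 genes tested, 557 were higher and 355 lower at 18 h (limma, adjusted p of at most 0.05 and at least a 2-fold difference on the log2(RPKM + 1) scale), which is 6.93% of all genes, 4.23% in the higher and 2.70% in the lower direction. A gene that met both limits is named as called, risen or fallen, and differences are 18 h minus 4 h on that scale throughout. The falls had the wider median: the difference was −2.03 among the fallen and 1.55 among the risen genes, and at least 4-fold for 179 against 121. The values of the groups did not overlap for 419 of the 557 and 273 of the 355, beside 7.63% of all genes tested. Predicted genes and pseudogenes made up 99 and 48 of the 2 sets. Over all genes tested 6777 had a difference above 0 and 6385 below 0, the background for the list counts given below.

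Those counts moved with single retinas. Leaving out the fourth 18 h retina gave 1064 higher and 388 lower, with 526 of the 557 and 327 of the 355 among them. The total of 912 fell to 553 without the fifth 4 h retina, and without the first, the second, the third and the fifth 18 h retina to 485, 458, 571 and 537. In experiment 1 alone, with 4 retinas against 3, 55 genes were higher and 83 lower. In experiment 2 alone, with 1 retina against 3, limma called 0 genes, with 2059 at an unadjusted p under 0.05, the lone retina being assumed to vary like the others. Quantile normalisation, which gives every retina the same distribution, left 412 higher and 400 lower, so that the share of higher calls fell from 61.1% to 50.7%.

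**Figure D1:**
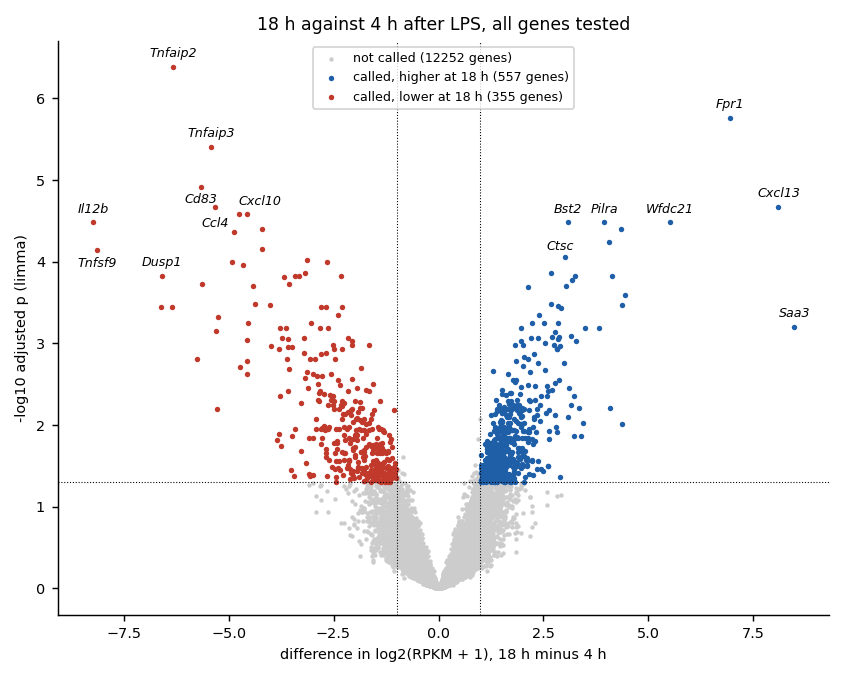
Difference in log2(RPKM + 1) between 18 h and 4 h on the x axis against −log10 of the limma adjusted p on the y axis, 1 point per gene tested. Dotted lines mark the 2-fold and 0.05 limits, and the 355 fallen genes on the left reach −8.23 for Il12b while the 557 risen genes on the right reach 8.47 for Saa3.

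The 2 sets of genes had different places relative to naïve microglia. Of the 557 risen genes, 438 had a 4 h median inside the range of the 10 naïve retinas and 110 below it, and at 18 h 243 had a median above that range. A direct move from within the range to above it was seen for 214 genes, and 78 went from below the range to within it. Of the 355 fallen genes, 233 had a 4 h median above the naïve range, and 188 of those were back within it at 18 h. Another 36 were above the range at both times, and 38 were below it at 18 h. Of the genes not called, 437 had a 4 h median above the range, 628 below it and 11187 within it. At 18 h the numbers were 769, 596 and 10887. The 2 sets were chosen on the same 4 h and 18 h values, so their places follow in part from that choice. A range of 10 retinas widens with any single naïve retina, so these places are a description without a test.

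**Figure D2:**
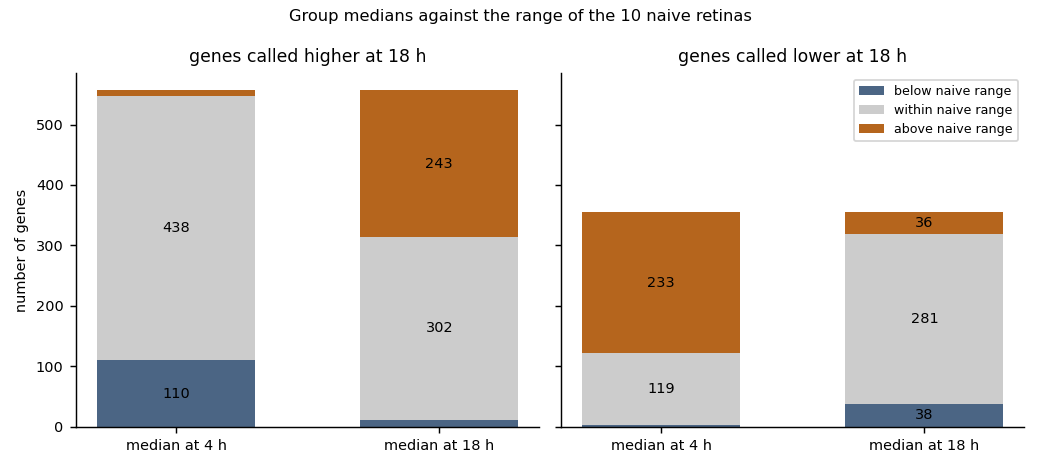
Number of called genes whose group median lay below, within or above the range of the 10 naïve retinas, at 4 h and at 18 h, for the 557 genes higher and the 355 genes lower at 18 h. Above the range were 233 of the fallen genes at 4 h and 36 at 18 h, and 243 of the risen genes at 18 h.

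The promoters of called genes were read for 3 motifs known from the LPS response, with both strands searched in RefSeq windows of 300 bases, most of them upstream of the start of the gene. The first was the interferon-stimulated response element core GAAANNGAAA, the next the gamma-activated site TTCCNGGAA, and the last the NF-kappa B consensus, which can overlap the others. A window was found for 9039 of the 13164 genes tested, 395 of the risen and 243 of the fallen. Some genes have several windows, and a gene counted if any of them held the motif. Of the genes with a window, 16.9% of the fallen and 3.54% of the risen held the NF-kappa B consensus, against 6.07% of all. The response element core was held by 7.59% of risen, 6.58% of fallen and 3.96% of all such genes, and the gamma-activated site by 1.77%, 5.35% and 1.53%. These shares are descriptions without a test, and a match is not evidence of binding. Printed here are the windows of the 2 genes in each direction with the largest differences among the named genes that held a motif (Saa3, Pilrb1, Ifnb1 and Ppp1r15a), and 3 chosen after their values were seen because they carry the contrast described below (Nfkbia and Cxcl10, which fell, and Bst2, which rose). All are GRCm38.p6, minus strand, 5′ to 3′ in the direction of the gene, with the motif in capitals. Saa3 (chr7:46715627-46715926), Pilrb1 (chr5:137858000-137858299) and Ppp1r15a (chr7:45526219-45526518) hold 1 response element core each, and Ifnb1 (chr4:88522745-88523044) and Nfkbia (chr12:55492598-55492897) 1 NF-kappa B consensus. Cxcl10 (chr5:92348840-92349139) holds a response element core followed by 2 NF-kappa B matches. In Bst2 (chr8:71537423-71537722) the capitals are an unbroken run in which a gamma-activated site overlaps an NF-kappa B match on one side and a response element core on the other, and that core overlaps another copy of itself.
Saa3: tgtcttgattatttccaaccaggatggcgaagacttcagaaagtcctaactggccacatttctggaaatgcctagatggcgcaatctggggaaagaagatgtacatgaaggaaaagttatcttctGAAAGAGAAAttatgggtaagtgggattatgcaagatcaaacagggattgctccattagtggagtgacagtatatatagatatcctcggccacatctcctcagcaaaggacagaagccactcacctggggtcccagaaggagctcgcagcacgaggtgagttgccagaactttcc
Pilrb1: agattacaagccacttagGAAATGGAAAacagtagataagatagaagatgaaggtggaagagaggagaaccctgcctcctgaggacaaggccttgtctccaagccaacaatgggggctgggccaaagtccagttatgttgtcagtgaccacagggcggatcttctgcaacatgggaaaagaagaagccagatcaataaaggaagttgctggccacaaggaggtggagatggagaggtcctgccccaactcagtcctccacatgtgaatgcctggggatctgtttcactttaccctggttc
Ifnb1: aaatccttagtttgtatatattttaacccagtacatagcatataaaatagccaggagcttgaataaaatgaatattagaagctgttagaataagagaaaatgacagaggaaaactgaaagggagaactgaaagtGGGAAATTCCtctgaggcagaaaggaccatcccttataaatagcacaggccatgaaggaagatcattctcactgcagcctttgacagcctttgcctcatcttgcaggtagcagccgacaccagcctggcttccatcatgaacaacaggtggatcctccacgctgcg
Ppp1r15a: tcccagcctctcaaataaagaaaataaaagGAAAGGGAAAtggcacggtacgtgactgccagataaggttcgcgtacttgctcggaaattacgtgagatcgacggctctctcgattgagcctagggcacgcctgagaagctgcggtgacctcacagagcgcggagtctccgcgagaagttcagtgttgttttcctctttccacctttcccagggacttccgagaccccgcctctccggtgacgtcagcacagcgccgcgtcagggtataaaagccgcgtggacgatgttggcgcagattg
Nfkbia: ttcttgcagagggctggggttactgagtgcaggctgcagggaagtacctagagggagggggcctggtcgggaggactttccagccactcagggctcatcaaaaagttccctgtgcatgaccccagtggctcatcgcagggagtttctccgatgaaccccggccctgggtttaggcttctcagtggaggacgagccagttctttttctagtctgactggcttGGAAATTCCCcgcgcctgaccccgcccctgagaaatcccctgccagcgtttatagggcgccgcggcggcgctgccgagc
Cxcl10: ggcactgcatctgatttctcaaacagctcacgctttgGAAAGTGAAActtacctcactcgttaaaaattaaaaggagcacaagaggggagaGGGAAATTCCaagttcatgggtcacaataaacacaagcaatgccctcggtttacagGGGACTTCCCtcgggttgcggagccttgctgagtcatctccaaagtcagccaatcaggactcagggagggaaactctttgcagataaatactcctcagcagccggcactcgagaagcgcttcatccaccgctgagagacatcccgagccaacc
Bst2: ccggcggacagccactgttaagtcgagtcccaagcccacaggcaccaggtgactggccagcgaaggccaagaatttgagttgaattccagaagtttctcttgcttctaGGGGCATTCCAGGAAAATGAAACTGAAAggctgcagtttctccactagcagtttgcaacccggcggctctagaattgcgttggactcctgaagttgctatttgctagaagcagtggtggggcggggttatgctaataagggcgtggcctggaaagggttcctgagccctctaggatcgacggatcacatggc

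Il12b and Tnfsf9 had the widest falls of the named genes. Of 21 cytokine genes tested, 10 fell and 0 rose (6 to 10 fell when 1 retina was left out), with a median difference of −2.40 against 0.02 over all genes. Il12b, the p40 subunit shared by IL-12 and IL-23 (mm10 chr11:44400063-44414033), was at 2333 to 11307 RPKM at 4 h with a median of 6151. At 18 h the 5 retinas held 25.9, 59.7, 67.4, 0.940 and 12.3 RPKM, far below every 4 h value, and naïve retinas held at most 0.0799. The difference of −8.23 ± 0.76 (SE) was a 301-fold fall (adjusted p = 3.3e-05). Tnfsf9, the ligand of the costimulatory receptor 4-1BB (chr17:57105325-57107757), fell likewise, from a median of 5449 RPKM (1687 to 7486) to 38.2, 31.6, 48.8, 0 and 16.0 RPKM (−8.12 ± 0.83, adjusted p = 7.2e-05).

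Tnf, which encodes tumour necrosis factor, was at 291 to 3291 RPKM at 4 h (median 1514) and at 49.5, 8.98, 39.2, 21.2 and 9.94 RPKM at 18 h, without overlap (−5.63 ± 0.66, adjusted p = 0.000187). All 5 values stayed above the naïve maximum of 4.29 RPKM. The interleukin-1 genes fell as well, Il1b from a median of 890 RPKM to 0.139 to 35.8 (−6.35) and Il1a from 5456 to 90.5 to 167 (−4.91). Ifnb1, the gene of interferon beta (chr4:88522025-88522774), was at 9.71 to 522 RPKM with a median of 167 at 4 h and was listed at 0 in all 5 retinas at 18 h (adjusted p = 0.000358). Il6 and Il23a fell with values that overlapped (−2.43 and −2.99, adjusted p = 0.0277 and 0.0412), and kept their calls in 4 and 3 of the 11 fits that each left out 1 retina. The anti-inflammatory genes Il10 (−1.87 ± 1.22, adjusted p = 0.395) and Il1rn (−1.50 ± 0.96, adjusted p = 0.386) did not pass the test, and ranged from 0 to 148 and from 6.47 to 338 RPKM at 4 h alone.

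Chemokines went in both directions, with 6 of 19 lower and 3 higher. Ccl4 and Ccl3, which attract monocytes and T cells, were among the most abundant transcripts at 4 h. Ccl4 was at 13241 to 41525 RPKM (median 29680) and fell to 1078, 834, 1098, 217 and 491 RPKM (−5.32 ± 0.45, adjusted p = 2.13e-05), and Ccl3 went from a median of 23756 to 613 to 2050 RPKM (−4.21). Cxcl10, a CXCR3 ligand induced by interferon and NF-kappa B, was at 1219 to 2566 RPKM at 4 h and at 87.2, 70.9, 89.4, 18.7 and 93.7 RPKM at 18 h (−4.56 ± 0.40, adjusted p = 2.62e-05). The neutrophil attractants Cxcl2 and Cxcl1 fell from medians of 143 and 23.7 RPKM to at most 6.06 and 0.946 (−5.27 and −3.50), although the Cxcl1 groups overlapped and its call held in 4 of the 11 fits.

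Cxcl13, the chemokine that draws B cells through CXCR5 (chr5:95956951-95961068), went the other way. It was at 0 to 20.2 RPKM at 4 h with a median of 2.83, and at 264, 1782, 1361, 1300 and 1235 RPKM at 18 h (8.10 ± 0.69, adjusted p = 2.13e-05), a 274-fold difference with naïve retinas at 0 to 3.75. Every 18 h retina lay above every 4 h retina. The monocyte attractant Ccl2 (median 470 RPKM at 4 h and 624 to 4121 at 18 h, difference 1.69, adjusted p = 0.0287) and the T cell attractant Ccl5 (1107 and 2065 to 6646, difference 1.76, adjusted p = 0.0490) were also higher, with overlapping groups and calls that held in 5 and 2 of the 11 fits.

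**Figure D3:**
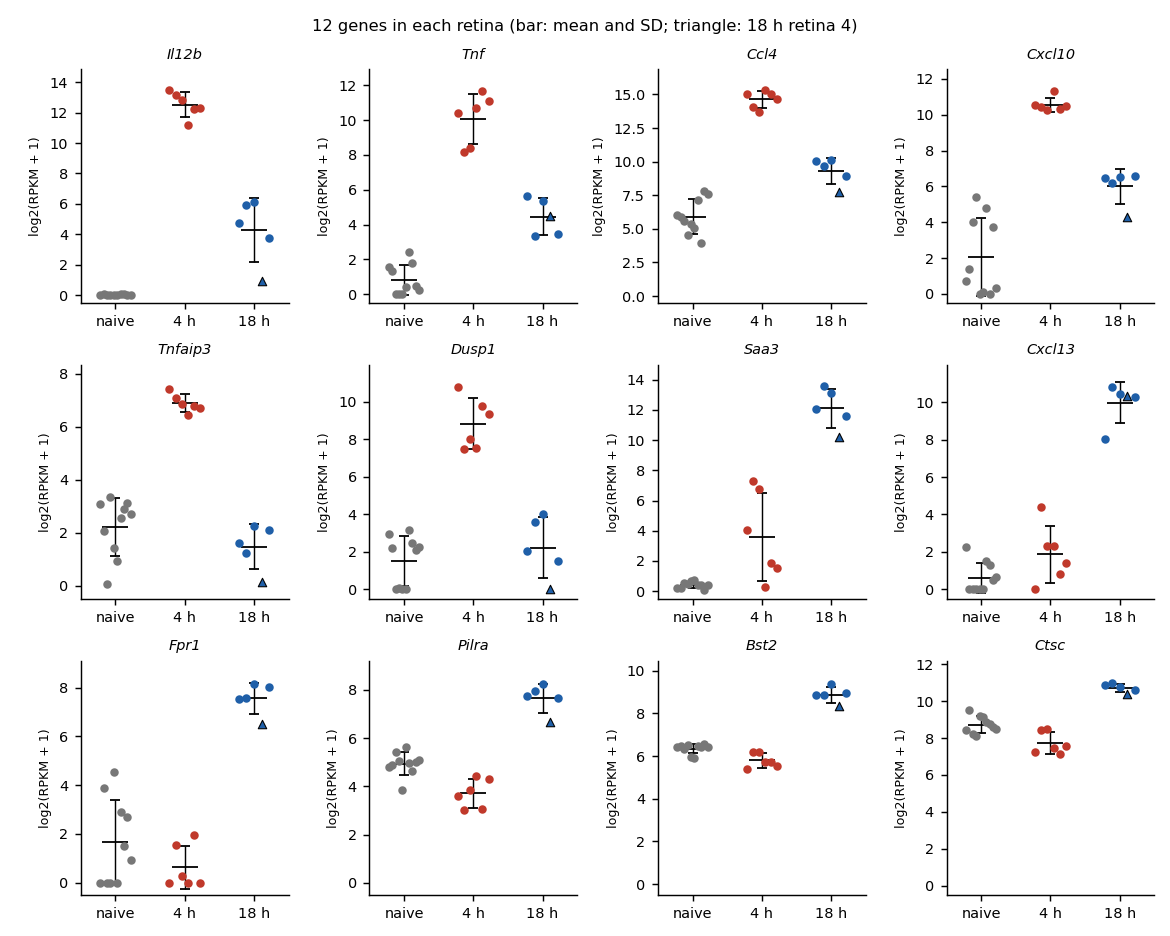
log2(RPKM + 1) of 12 genes in each naïve (grey), 4 h (red) and 18 h (blue) retina, with group mean and SD as bars and the fourth 18 h retina as a triangle. In the upper 6 panels (Il12b to Dusp1) the 18 h points lie below all 4 h points, and in the lower 6 (Saa3 to Ctsc) they lie above them.

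Genes of the NF-kappa B pathway fell together. All 21 tested subunits and feedback inhibitors had a difference below 0, 15 were called and the median was −3.09. Under quantile, equal-sum and equal-median scaling 15 were again called and all 21 lay below 0, and 13 to 15 were called when 1 retina was left out. Tnfaip3, which encodes the ubiquitin editor A20 (chr10:19000910-19015657), was at 85.0 to 171 RPKM at 4 h with a median of 113. At 18 h it was at 2.08, 1.37, 3.81, 0.0853 and 3.32 RPKM, all within the naïve range of 0.0487 to 9.17 (−5.41 ± 0.39, adjusted p = 3.88e-06). Nfkbia, the gene of I kappa B alpha (chr12:55489410-55492647), fell from a median of 1481 RPKM (508 to 2846) to 139, 71.6, 269, 53.7 and 70.9 RPKM (−3.58 ± 0.51, adjusted p = 0.000878). The transcription factor subunit Rel (−3.41), the atypical inhibitor Nfkbiz (−4.20) and the ubiquitin ligase Birc3 (−3.32) fell without overlap as well. A window was found for 18 of the 21 genes, and 10 of these held the NF-kappa B consensus. In the MHC class I list, with a median difference of −0.01, 7 of 13 genes with a window held it. The list of decay factors and phosphatases also holds the kinase gene Map3k8. Of the 15 genes of that list with a window 0 held the consensus, although 8 of the 17 tested fell. The part of the motif in the falls was not tested.

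Other inflammatory genes went in both directions. Tnfaip2, a TNF-induced gene, had the smallest adjusted p of all genes (4.09e-07), and went from 158 to 455 RPKM at 4 h (median 220) to 2.86, 2.08, 3.63, 1.27 and 0.817 RPKM (−6.32 ± 0.35). Mir155hg, the host transcript of the inflammatory microRNA miR-155, fell from a median of 552 RPKM to 12.3 to 45.2 (−4.86). The inflammasome genes Nlrp3 (−2.69, adjusted p = 0.0194) and Casp4 (−1.99, adjusted p = 0.00501) were lower, whereas Pycard, the adaptor that links such sensors to caspases, rose from a median of 20.1 RPKM (8.66 to 46.5) to 157, 216, 141, 354 and 177 RPKM (3.16 ± 0.44, adjusted p = 0.000814). Il18bp, a secreted antagonist of IL-18, rose too, from a median of 1.59 RPKM to 5.74 to 20.5 (2.33, adjusted p = 0.0122).

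Immediate early genes, mRNA decay factors and MAP kinase phosphatases fell in part. Of 18 immediate early genes 7 fell and 0 rose (4 without the fifth 18 h retina, and at most 10 when 1 retina was left out), among them Ier3 from a median of 222 RPKM to 1.83 to 33.5 (−3.80). Of 17 genes in the list of decay factors and phosphatases, which also holds the kinase gene Map3k8, 8 fell and 1 rose. Dusp1, which switches off p38 and JNK, was at 178 to 1747 RPKM at 4 h (median 449) and at 3.08, 10.9, 15.4, 0 and 1.87 RPKM at 18 h (−6.58 ± 0.75, adjusted p = 0.00015). Dusp6, a phosphatase for ERK, was the member that rose: it was at 0.0277 to 8.14 RPKM at 4 h, below the naïve range of 36.1 to 94.7, and at 36.6, 28.5, 39.7, 13.9 and 16.5 RPKM at 18 h (2.83 ± 0.60, adjusted p = 0.0123). Zfp36, the gene of tristetraprolin, fell with overlapping groups (−3.08, adjusted p = 0.0402, called in 2 of the 11 fits), and the kinase gene Map3k8 fell from a median of 153 RPKM to 5.71 to 27.9 (−2.74).

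Genes of the LPS receptor complex went in both directions. Of 22 toll-like receptor and adaptor genes, 4 fell and 2 rose. Cd14, the co-receptor that hands LPS to TLR4, was at 1874 to 14678 RPKM at 4 h (median 3458) and at 820, 514, 621, 100 and 431 RPKM at 18 h, around its naïve range of 223 to 661 (−3.58 ± 0.62, adjusted p = 0.00385). Tlr2 (−2.59) and the kinase Irak2 (−2.64) fell without overlap. Tlr4 moved up from 0 to 1.63 RPKM at 4 h to 10.2, 4.63, 9.75, 0.729 and 12.6 RPKM (2.02 ± 0.52, adjusted p = 0.0319), 4 of the 5 retinas lying above all 4 h retinas and 1 among them. Its partner Ly96, which encodes MD-2, was also higher (1.57, adjusted p = 0.0497). These 2 calls held in 5 and 1 of the 11 fits. Aoah, the lipase that detoxifies LPS by removing its secondary acyl chains, rose from a median of 4.27 RPKM (3.16 to 9.01) to 45.1, 63.1, 93.3, 52.6 and 30.4 RPKM, above the naïve maximum of 6.10 (3.17 ± 0.36, adjusted p = 0.000166).

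Of 14 costimulatory and adhesion genes 6 fell and 0 rose, 4 had a difference above 0, and 6 or 7 fell whichever retina was left out. Cd83, a maturation marker of antigen-presenting cells, went from 633 to 4284 RPKM (median 2077) to 57.6, 28.6, 49.6, 25 and 37.2 RPKM (−5.65 ± 0.45, adjusted p = 1.21e-05). Icam1, the endothelial and leucocyte ligand of LFA-1, and Cd40, the receptor for T cell help, fell from medians of 126 and 41.9 RPKM to at most 11.2 and 3.70 (−4.65 and −3.77). Vasoactive and clotting genes, all but Adm named after their values were seen, also fell without overlap, namely the vasoconstrictor endothelin Edn1 (−4.37), the vasodilator adrenomedullin Adm (−4.56), tissue factor F3 (−4.56) and the urokinase receptor Plaur (−3.14). So did the migration receptor Ccr7 (−3.50), the chemerin-binding receptor Ccrl2 (−4.75), the receptor for platelet-activating factor Ptafr (−3.68) and the IL-10 receptor chain Il10ra (−2.73).

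Acute-phase genes stood at the opposite end. Of 6 acute-phase and secreted defence genes 3 rose (5 without the fourth 18 h retina), with a median of 2.40. Saa3, a serum amyloid A protein made outside the liver (chr7:46711998-46715700), was at 0.209 to 155 RPKM at 4 h with a median of 8.88. It was at 4173, 12044, 8705, 1198 and 3010 RPKM at 18 h, so every 18 h retina lay above every 4 h retina, and naïve retinas held at most 0.649 RPKM (8.47 ± 1.14, a 356-fold difference, adjusted p = 0.000632). Wfdc21, a secreted protein of the whey acidic protein family, was at 0 to 1.81 RPKM at 4 h and at 37.3, 120, 69.8, 102 and 15.1 RPKM at 18 h (5.51 ± 0.51, adjusted p = 3.3e-05). The ferroxidase ceruloplasmin, Cp, rose from a median of 9.51 RPKM to 19.9 to 61.8 (1.98, adjusted p = 0.0143). The iron-siderophore binder Lcn2 was at 1.11 to 17.3 RPKM at 4 h and 121, 126, 182, 2.89 and 51.8 RPKM at 18 h (2.81 ± 0.90, adjusted p = 0.0737). It was not called with the fourth 18 h retina in the fit, and was called without it (3.78, adjusted p = 0.00207).

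Fpr1, the receptor for bacterial formyl peptides (chr17:17876471-17883940), was at 0 to 2.87 RPKM at 4 h and at 186, 192, 279, 90.5 and 259 RPKM at 18 h (6.94 ± 0.45, a 122-fold difference, adjusted p = 1.71e-06), with naïve retinas at 0 to 21.9. The class A scavenger receptors Marco (4.36, from at most 2.90 RPKM to 16.4 to 37.6) and Msr1 (4.08, from a median of 9.75 RPKM to 53.6 to 465) and the class B receptor Cd36 (3.45, from at most 11.1 RPKM to 29.5 to 150) rose, with overlap between groups for Msr1. Ctsc, the cathepsin that activates granule proteases, went from 142 to 358 RPKM (median 185) to 1861, 2031, 1751, 1342 and 1587 RPKM, without overlap (3.00 ± 0.31, adjusted p = 8.64e-05).

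Pilra, an inhibitory receptor with an immunoreceptor tyrosine-based motif, was at 7.07 to 20.2 RPKM at 4 h (median 12.3) and at 214, 247, 300, 101 and 200 RPKM at 18 h, above the naïve maximum of 49.2 (3.95 ± 0.37, adjusted p = 3.3e-05). Its activating relatives Pilrb1 and Pilrb2, near-identical copies between which reads may be split, were at most 0.766 and 1.79 RPKM at 4 h and at 4.85 to 60.9 and 12.3 to 51.8 RPKM at 18 h (4.44 and 4.13). By symbol, counted after the values were seen, all 3 tested Clec4a genes rose (median 2.90), as did 4 of 7 Ms4a genes (median 2.81), and both families hold close copies. Of 6 Ly6 genes Ly6i and Ly6a rose, Ly6i from at most 5.10 RPKM to 31.5 to 70.1 (4.05 ± 0.40, adjusted p = 5.69e-05). Of 3 Siglec genes Siglece rose and Siglech fell. The sialic acid receptor Siglece (2.60, adjusted p = 0.0316) and the collagen receptor Lair1 (2.03, adjusted p = 0.0493) were higher with overlapping groups, and were called in 5 and 3 of the 11 fits.

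Fc receptors rose, with 4 of 16 complement and Fc receptor genes higher and 0 lower (7 higher without the fourth 18 h retina). Fcgr4, an activating receptor for IgG, went from 43.5 to 201 RPKM at 4 h (median 61.2) to 547, 581, 833, 436 and 474 RPKM (2.76 ± 0.40, adjusted p = 0.00105), and Fcgr1 from a median of 41.6 to 60.7 to 263 RPKM (1.90, adjusted p = 0.00586). The shared signalling chain Fcer1g (1.49) and the inhibitory receptor Fcgr2b (1.72) were higher too. In none of these 4 genes did the groups overlap.

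Interferon-stimulated genes divided into some that rose and some that fell. Of 38 effectors 3 rose and 3 fell, with a median of 0.28, and 9 rose without the fourth 18 h retina. The median of the list was −0.71 in experiment 1 alone. Bst2, the membrane tether tetherin that holds back budding viruses (chr8:71534255-71537456), was at 41.1 to 72.9 RPKM at 4 h (median 52.3) and at 457, 458, 671, 323 and 501 RPKM at 18 h (3.08 ± 0.28, adjusted p = 3.3e-05). The 4 h median was below the naïve range of 59.6 to 94.1, and every 18 h retina was above its maximum. Ifi27l2a (3.04, from 46.4 to 151 RPKM at 4 h to 373 to 951) and Ifitm3, which blocks viral fusion (2.88, from 146 to 906 RPKM to 2431 to 3147), also rose without overlap.

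The interferon genes that fell were the RNA sensor Ifih1 (−2.48, from a median of 34.3 RPKM to 1.15 to 8.93), the GTPase Mx2 (−2.41) and, with overlap and in 2 of the 11 fits, Parp14 (−1.71). Gbp5, a guanylate-binding protein, fell from 5.36 to 43.6 RPKM at 4 h (median 25.6) to at most 0.826 (−3.77 ± 0.51, adjusted p = 0.00065). No other of the 15 interferon-inducible GTPases tested was called (6.67% of the list, beside 6.93% of all genes). Common markers of the interferon response did not pass the test, with Isg15 at a median of 195 RPKM at 4 h and 36.8 to 104 at 18 h (−1.33 ± 0.54, adjusted p = 0.158), Ifit1 at 206 and 22.2 to 123 RPKM (−1.69 ± 0.75, adjusted p = 0.196) and Rsad2 at 41.0 and 2.66 to 14 RPKM (−1.79 ± 0.71, adjusted p = 0.149). Irf7, the interferon-induced regulator of interferon genes, did not either (1.37 ± 0.48, adjusted p = 0.102). Of 24 IRF, STAT, JAK and SOCS genes 4 fell and 0 rose, namely Socs3 (−4.56), Irf1 (−2.79), Socs2 (−2.18) and Cish (−2.03), of which Socs3 and Irf1 kept the call in all 11 fits. A window was found for 28 of the 38 effectors and 16 of these held the response element core.

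Antigen presentation genes were called in both directions. Of 16 MHC class I genes 3 rose and 1 fell (25%, beside 6.93% of all genes), around a median of −0.01 whose sign changed with the scaling, and the number that rose was 0 to 5 when 1 retina was left out. H2-M3, which presents formylated peptides, rose from a median of 26.3 RPKM (7.41 to 48.9) to 108, 119, 121, 49.3 and 96.9 RPKM (2.14, adjusted p = 0.0163). H2-Q6 and H2-T22 belong to families of near-identical genes and their differences (−1.39 and 1.90) are uncertain for that reason. Of 10 class II genes H2-Oa and H2-Ob, which make the inhibitor of peptide loading, fell (−2.60 and −2.03), which is 20% of the list, and the other 8 were not called. The immunoproteasome subunits Psmb10 (1.56, adjusted p = 0.0116) and Psmb8 (1.67, adjusted p = 0.0401) rose among 5 tested members. The number was 1 to 5 when 1 retina was left out, with 5 without the fourth 18 h retina, and 1 after quantile normalisation.

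Protein synthesis and turnover genes rose by small amounts in many members. Of 86 cytosolic ribosomal protein genes 84 had a difference above 0, 25 were called higher and 0 lower, and the median was 0.97. Among all 13164 genes tested 6777 lay above 0 and 4.23% were called higher. Rpl27 was at 45.6 to 86.3 RPKM at 4 h (median 56.6) and at 196, 177, 161, 153 and 161 RPKM at 18 h, without overlap (1.52 ± 0.26, adjusted p = 0.00368), and Rpl5 went from a median of 33.9 to 77.1 to 112 RPKM (1.43). Pseudogene copies of these genes can take a share of the reads. Averaged over the 86 genes, log2(RPKM + 1) was 5.26 to 6.46 in the 4 h retinas and 6.58 to 7.08 in the 18 h retinas, with the naïve retinas at 4.81 to 6.14. The number of calls was 8 without the first 18 h retina and 7 after quantile normalisation, under which 80 of the 86 differences were above 0. The share of RPKM held by the 100 highest genes of a retina was 51.0% ± 2.98 (SD, n = 5) at 18 h and 59.6% ± 2.29 (n = 6) at 4 h (exact permutation test, two-sided, p = 0.00433, adjusted 0.0260). Its part in the small rises was not tested beyond the scaling above.

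Mitochondrial ribosomal proteins and the proteasome had the same direction. Of 78 mitochondrial ribosomal genes 14 rose and 0 fell, with a median of 0.77, 7 calls without the second 18 h retina and 7 after quantile normalisation. Mrpl24 was at 9.05 to 14.5 RPKM at 4 h (median 11.5) and at 54.2, 47.4, 46.8, 54.5 and 38.3 RPKM at 18 h (1.98 ± 0.27, adjusted p = 0.00065). Of 33 constitutive proteasome genes 6 rose (2 without the second and 12 without the fourth 18 h retina), with a median of 0.86 and 2 calls and a median of 0.54 after quantile normalisation, among them Psma1 from a median of 80.3 RPKM (45.3 to 101) to 262, 251, 221, 193 and 261 RPKM (1.67, adjusted p = 0.00238). Of 75 oxidative phosphorylation genes 71 were above 0 and 1, Atp5e, was called (1.09, adjusted p = 0.0486, in 2 of the 11 fits). That is 1.33% of the list, beside 6.93% of all genes.

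Several chaperones of the endoplasmic reticulum rose. Of 16 genes of the unfolded protein and integrated stress responses 5 rose and 1 fell, and the number that rose was 5 whichever retina was left out. Sdf2l1, a resident of the endoplasmic reticulum chaperone complex, was at 13.9 to 59.3 RPKM at 4 h (median 20.5) and at 217, 223, 186, 143 and 205 RPKM at 18 h (2.93 ± 0.37, adjusted p = 0.000371). Creld2 (3.29), Manf (2.82), Pdia4 (2.63) and Hsp90b1 (1.77) were the others. The member that fell was Ppp1r15a, the phosphatase subunit GADD34 that reverses translational arrest, from a median of 488 RPKM (29.8 to 987) to 5.42, 3.08, 9.47, 0.0600 and 7.61 RPKM (−5.75 ± 0.88, adjusted p = 0.00154). The response markers Hspa5 (0.48, adjusted p = 0.486), Xbp1 (0.07, adjusted p = 0.968) and Ddit3 (0.76, adjusted p = 0.334) did not pass the test.

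**Figure D4:**
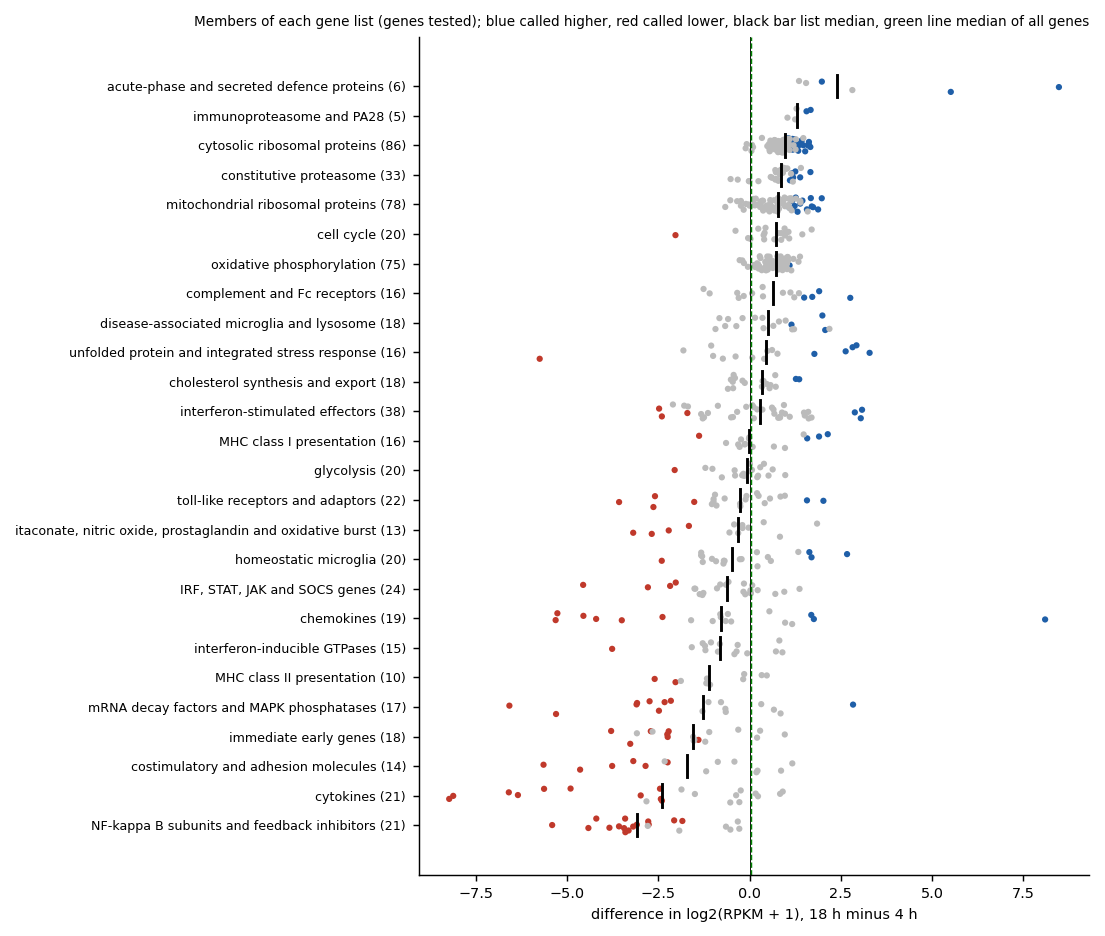
Difference in log2(RPKM + 1) between 18 h and 4 h for every tested member of 26 gene lists, with the number tested in brackets, called genes in blue (higher) or red (lower), list medians as black bars and the median of all genes as a dashed line. NF-kappa B genes lie lowest with a median of −3.09 and acute-phase genes highest with 2.40.

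Microglial identity genes did not move as a unit. Of 20 homeostatic genes 3 rose and 1 fell (20%, beside 6.93% of all genes), with a median of −0.48 that was 0.04 without the fourth 18 h retina. After quantile normalisation 2 rose and 4 fell, with a median of −0.72. Sall1, a transcription factor specific to microglia among macrophages (1.64, from at most 5.42 RPKM to 8.0 to 15.7), and Cx3cr1, the fractalkine receptor whose locus carries CreER here (1.69, from at most 35.5 RPKM to 43.0 to 98.2), were higher without overlap, in 10 and 7 of the 11 fits. Maf, a transcription factor of macrophages, rose in the same way (2.53 ± 0.37, adjusted p = 0.000997), from at most 4.05 RPKM to 14.4 to 38.2.

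Other identity genes were not called. P2ry12, the purinergic receptor that guides microglial processes, was at a median of 328 RPKM at 4 h and at 332, 139, 104, 88.3 and 360 RPKM at 18 h, with naïve retinas at 866 to 2714 (−0.92 ± 0.65, adjusted p = 0.432). The groups overlapped throughout, as they did for Tmem119 (0.20 ± 0.64, adjusted p = 0.892) and Gpr34 (−0.27 ± 0.82, adjusted p = 0.885). Csf1r overlapped only in part, with 60.8 to 197 RPKM at 4 h and 33.7 to 77.3 RPKM at 18 h (−1.03 ± 0.37, adjusted p = 0.115). Siglech, an adaptor-coupled receptor of microglia, fell from 58.8 to 211 RPKM (median 182) to 67.2, 16.4, 19.6, 6.74 and 57.3 RPKM with 1 retina among the 4 h values (−2.41, adjusted p = 0.0198, in 9 of the 11 fits). The macrophage markers Adgre1, which encodes F4/80 (2.68 ± 0.33, from at most 60.6 RPKM to 192 to 654), and Aif1, which encodes IBA1 (2.29 ± 0.39, from at most 531 RPKM to 912 to 2393), rose without overlap.

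**Figure D5:**
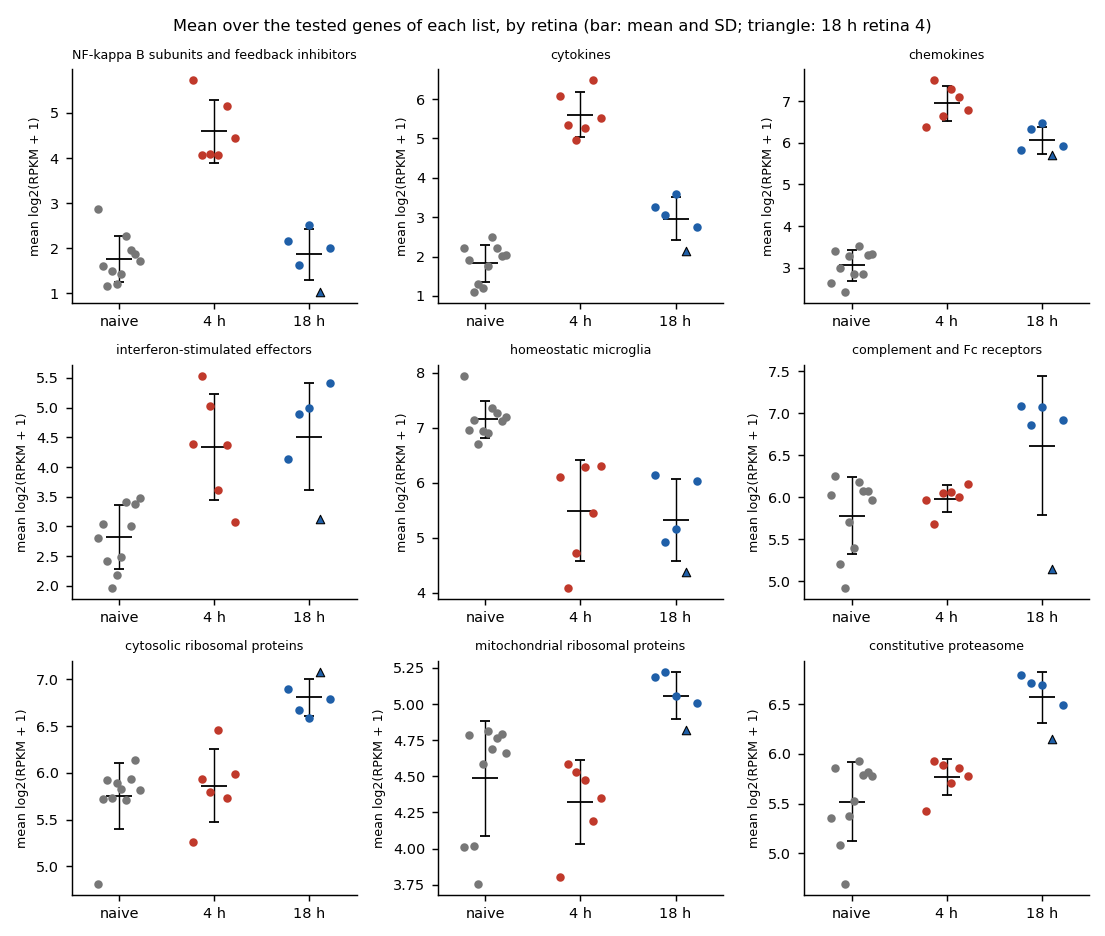
Mean log2(RPKM + 1) over the tested genes of 9 lists in each naïve (grey), 4 h (red) and 18 h (blue) retina, with group mean and SD as bars and the fourth 18 h retina as a triangle. The 18 h retinas lie below all 4 h retinas for NF-kappa B genes and cytokines and above them for both ribosomal lists and the proteasome, and the groups overlap for interferon-stimulated and homeostatic genes.

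Of 18 genes of disease-associated microglia and the lysosome 3 rose and 0 fell (Cst7 at 1.99, Lgals3 at 2.07 and Ctsz at 1.15). Of all genes 4.23% rose. In the list 12 genes had a difference above 0 and 6 below. The lipid genes Apoe (−0.83, adjusted p = 0.453) and Lpl (0.38, adjusted p = 0.754) did not pass the test. The number that rose was 7 without the fourth 18 h retina and 1 without the first, the second or the fifth 18 h retina or the fifth 4 h retina. Cst7, an inhibitor of cysteine cathepsins, went from 13.5 to 45.5 RPKM at 4 h to 138, 129, 175, 54.6 and 141 RPKM (adjusted p = 0.00651). In metabolism, the itaconate-forming enzyme Acod1 fell from 57.6 to 149 RPKM (median 71.9) to 14.5, 4.84, 22.9, 4.94 and 4.52 RPKM (−3.19 ± 0.45, adjusted p = 0.000867). The glycolytic activator Pfkfb3 fell from a median of 19.9 RPKM to 2.32 to 5.57 (−2.06, adjusted p = 0.000924), as 1 of 20 glycolysis genes (5%, beside 6.93% of all genes). The cystine importer Slc7a11 (−3.57) and the thioredoxin reductase Txnrd1 (−2.79), antioxidant genes named after their values were seen, fell without overlap. Of other antioxidant genes, Hmox1 had a difference of 1.85 (adjusted p = 0.0588) and Sod2 differed 1.15-fold, and neither was called. The cholesterol synthesis enzymes Msmo1 (1.36) and Fdps (1.27) were the only risen members among 18 of that list (11.1%). Of 20 cell cycle genes the proliferation marker Mki67 fell with overlapping groups (−2.03, adjusted p = 0.0423, in 3 of the 11 fits), the only call of the list (5%). Another 17 cell cycle genes had a difference above 0, with a list median of 0.73. Under quantile or equal-median scaling 3 of that list rose and 0 fell, and without the fourth 18 h retina 2 rose and 0 fell.

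Of the markers of other cells, Nkg7, a granule protein of natural killer and cytotoxic T cells, was listed at 0 in all 4 h and naïve retinas and was at 5.77, 35.5, 11.9, 86.4 and 12.1 RPKM at 18 h (adjusted p = 0.000334). Cd79b, part of the B cell receptor that naïve microglial libraries also held at 20.2 to 81.3 RPKM, was higher at 18 h (1.6, adjusted p = 0.0112). Of 6 perivascular macrophage markers Mrc1 and Pf4 fell with overlapping groups (−1.91 and −2.45, adjusted p = 0.0337 and 0.0429), in 5 and 3 of the 11 fits.

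Whether the 18 h minus 4 h difference depended on the experiment was tested with an interaction term, and limma called 0 genes with 378 at an unadjusted p under 0.05, on a single 18 h retina of experiment 2. All 557 risen and 355 fallen genes had the same sign in either experiment alone, which follows in part from their having been chosen on the same retinas.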

How the data were processed

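Retinal microglia were sorted from single retinas and libraries were prepared with SMART-Seq v4 and Nextera XT, which do not mark strand, so a gene cannot be told apart from an overlapping or antisense partner. Per the labels and the study's methods, the authors demultiplexed reads with bcl2fastq 2.20, aligned them with STAR 2.5.3a to mm10 and estimated gene levels with Partek, which assigns ambiguous reads by expectation-maximisation. The deposited values are RPKM per gene, which hold no read counts, so count models were not used. The deposited tables of the authors' own comparisons (fold changes and p-values) were not used.

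The line of alignment numbers was set aside from the 40021 genes listed. Those reaching an RPKM of 1 in 5 or more of the 28 retinas were kept (13164) and transformed to log2(RPKM + 1), a scale that understates differences of low genes. The 5 retinas at 18 h and 6 at 4 h were compared with limma 3.58.1 in R 4.3.3 (trended moderation, no covariates), Benjamini-Hochberg adjusted over all genes tested, with an adjusted p of at most 0.05 and at least a 2-fold difference as the limits of the study. Single library values were compared by exact permutation over 462 splits (scipy 1.17.1, Python 3.11.15). Depth, given as alignments, did not pass that test (adjusted p = 0.935). Coordinates are GENCODE M21 (mm10), promoters RefSeq, and plots were made with matplotlib 3.10.9. Scripts were tested on simulated data.

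The comparison and gene lists were chosen with earlier results of these data known. Genes named were the 10 in each direction with the largest difference among called genes without overlap and a mean RPKM of at least 10 in the higher group (no predicted genes or pseudogenes), up to 4 called members per list and direction with the smallest p, or the most abundant member where none was called, the 5 genes with the smallest interaction p, and the highest marker of each cell type. The others named, among them Il10, Il1rn, Isg15, Lcn2, P2ry12, Pycard, Aoah, Ctsc, Maf and Mir155hg, were chosen after their values were seen. Other pseudocounts, filters, scalings, covariates and subsets of retinas were tried. Some genes are not reported here.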

Additional observations from a re-analysis of the deposited data

Results flagged for a closer look

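In groups of 5 or 6 retinas, 1 value was set against the rest by the share of the group's range that separates it from its nearest neighbour (Dixon's test, 95% limit). Of 74 groups tested 14 passed. The limit passes about 1 in 20 only for independent, normally distributed values. These groups share retinas and include untransformed sums, so the count cannot be set against chance.

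The fourth 18 h retina was the far value in 4 of them. Its 6969 genes at an RPKM of at least 1 were apart from 9499 to 10220 (0.778), its Tnfsf9 was at 0 against 16.0 to 48.8 RPKM (0.725), its lymphocyte marker sum was 367 against 41.0 to 115 RPKM (0.773), and its endothelial marker sum was 0.222 against 1.58 to 2.10 RPKM (0.721).

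The fifth 18 h retina, the only one of experiment 2, was the far value for Gm3235 (2.04 against at most 0.249 RPKM, 0.800), Gm1966 (5.99 against at most 0.665 RPKM, 0.747) and the monocyte marker sum (49.7 against 0.228 to 14 RPKM, 0.722). Both predicted genes were named for a small interaction p, which rests on this single 18 h retina of experiment 2. Their flags therefore follow in part from that choice. Neither predicted gene was called between the times. The first 18 h retina was far below the others for Cxcl13 (264 against 1235 to 1782 RPKM, 0.808), and the third had the fewest alignments (11600000 against 13600000 to 14400000, 0.714).

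At 4 h, the fourth retina had 19700000 alignments against 10500000 to 13800000 (0.641) and Wfdc21 at 1.81 RPKM against at most 0.199 (0.824). The first held Marco at 2.90 RPKM against at most 0.179 (0.879), the second a monocyte marker sum of 15.5 against 0.0505 to 2.99 RPKM (0.809), and the fifth an erythrocyte marker sum of 735 against 13.9 to 38.2 RPKM (0.966). Gene values were compared on the log2(RPKM + 1) scale.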

How the results depend on the processing

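The 912 calls (557 higher, 355 lower) became 431 (289 and 142) with a pseudocount of 10, 532 (330 and 202) without a filter, 138 (55 and 83) in experiment 1 alone, 0 (0 and 0) in experiment 2 alone, 2097 (1339 and 758) with sample weights, 278 (147 and 131) at an adjusted p of at most 0.01 and 300 (121 and 179) at a 4-fold limit. Leaving out 1 retina gave 458 to 1452 calls, 264 to 1064 higher and 194 to 440 lower. The cause was not tested, except that the stricter limits have fewer calls by construction. Sample weights down-weight single retinas, and 0.1 as pseudocount, the other filters, experiment or eye as covariate, all 28 retinas, untrended or robust moderation, the 3 rescalings, untransformed RPKM and a GC and length correction gave counts within 1.5 times. Whether replicate numbers pair the retinas is not given by the labels, and 5 correlations cannot decide it. Deviations from the group means of same-numbered retinas correlated at 0.33, 0.02, −0.22, 0.00 and 0.17, and 2 of 5 retinas correlated best with their own number. With the number as a block, 431 genes were called (230 and 201). No gene reversed direction while called. Setting the medians of the retinas equal moved the median of all genes from 0.02 to 0.13.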
